A study of Mus musculus with 12 samples.

Results

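Interscapular brown fat was compared with inguinal white fat, using 6 of the 12 RNA sequencing libraries of a study of mouse adipose depots: 3 labelled BAT (interscapular brown adipose tissue) and 3 labelled IWAT (inguinal white adipose tissue). The libraries were selected by their titles, with earlier results of these data known. Both groups came from male C57BL/6J wild type mice, given in the design text as 6 to 10 weeks old, on a high-fat rodent diet, and both carried the label of surgical denervation. No innervated or chow-fed fat was analysed here, so the values compare depots of denervated fat and say nothing about denervation. The other 6 libraries, 3 of epididymal (EWAT) and 3 of retroperitoneal white fat (RWAT), carried the same labels for strain, genotype, sex, diet and procedure. They entered the same model, so that all 4 depots shared an estimate of the spread. The labels do not say whether libraries of a depot came from separate animals or pooled fat, so the p-values reflect the spread among these samples and no more.

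Brown adipocytes burn fuel to make heat through the uncoupling protein UCP1, under the control of sympathetic nerves that release noradrenaline onto beta adrenergic receptors. Interscapular brown fat arises from dorsal trunk mesoderm that also forms back muscle and skin, whereas subcutaneous inguinal fat forms near the hind limb and can acquire UCP1-positive beige cells in the cold. Fat tissue also keeps a record of its position: homeobox genes of the Hox clusters and other patterning factors, set in the embryo, stay on in adult adipose depots.

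The 6 libraries held 17064476 to 20457136 estimated counts. Of 47729 genes, 18942 passed the filter on low counts and were tested. Levels are CPM, counts scaled to the library's total, and a difference is a log2 fold change of BAT over IWAT ± SE from edgeR's quasi-likelihood F test, two-sided, with p adjusted by the Benjamini-Hochberg (BH) method over all genes tested and a threshold of 0.05. Reads carried no described molecular identifiers, so intervals and floors take in counting error alone.

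The BAT label was held up by the patterning genes in each library but by the thermogenic markers in BAT 1 alone. Zic1 and Lhx8, patterning genes expressed in interscapular brown fat, were higher in each BAT library than in each IWAT library. Ucp1 stood at 1489 CPM in BAT 1, 0.253 CPM in BAT 2 and 1.70 CPM in BAT 3, and at 4.45, 8.66 and 1.53 CPM in IWAT 1 to 3. BAT 2 was below every IWAT library and BAT 3 lay within their range. BAT is therefore used below as the name on the label. In whole tissue, fewer cells of a type and less RNA per cell cannot be told apart. Across the 18942 genes BAT 3 ranked most like IWAT 3 (Spearman's rho 0.977, across genes, which are not replicates), against 0.962 with BAT 1 and 0.943 with BAT 2.

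Zic1 was higher in BAT, and Hoxa9, Hoxa10 and Hoxc10, homeobox genes of the posterior body, were lower. They were 4 of the 5 genes past the threshold by edgeR (0.0264% of genes tested), 2 higher (0.0106% of genes tested) and 3 lower in BAT (0.0158%). At an unadjusted p below 0.05 the counts were 1537 higher (8.11%) and 964 lower (5.09%). The libraries of the 2 depots did not overlap for 1585 genes higher in BAT (8.37%) and 1499 lower in BAT (7.91%). The calls depended on the model: limma-voom and an edgeR fit of the 6 libraries alone called 0 genes (2372 and 1887 at an unadjusted p below 0.05), while DESeq2 called 321, 272 of them higher in BAT (1.53% of the genes it gave an adjusted p). Without BAT 2 edgeR called 82, of which 78 were higher (0.398%) and 4 lower in BAT (0.0204%), without BAT 3 it called 11 and without BAT 1 it called 3.

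Windows before annotated start sites of these called genes are shown because the BAT and IWAT libraries did not overlap for them. From the RefSeq promoter table (GRCm38.p6), windows were found for 3 of these 4 genes, Zic1, Hoxa9 and Hoxa10, the last with a pair of start sites. Hoxc10 had no entry. Each line is the 250 bases before a start, 5′ to 3′ on the gene's strand. Capitals mark the CCAAT box, the GC box (letters GGGCGG) and the TATA box (letters TATAAA), searched on both strands, and no matches of different motifs overlapped. All 4 windows are on the minus strand: Zic1 at chr9:91365769-91366018, Hoxa9 at chr6:52227371-52227620, the first Hoxa10 window at chr6:52240855-52241104 and the second at chr6:52234940-52235189. By the gene positions given below, the Hoxa9 window and the second Hoxa10 window lie within their genes. The Zic1 window overlaps the edge of its gene.
Zic1: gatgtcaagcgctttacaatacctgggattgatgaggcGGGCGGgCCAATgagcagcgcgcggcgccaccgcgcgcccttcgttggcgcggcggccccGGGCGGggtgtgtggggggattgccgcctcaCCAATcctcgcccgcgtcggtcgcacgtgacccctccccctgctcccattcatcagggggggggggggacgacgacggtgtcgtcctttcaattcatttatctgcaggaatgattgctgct
Hoxa9: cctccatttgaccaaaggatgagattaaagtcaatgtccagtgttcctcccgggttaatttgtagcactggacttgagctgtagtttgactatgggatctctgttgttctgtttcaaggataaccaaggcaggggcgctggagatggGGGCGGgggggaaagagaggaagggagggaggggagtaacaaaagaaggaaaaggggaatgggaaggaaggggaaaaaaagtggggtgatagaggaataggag
Hoxa10, first window: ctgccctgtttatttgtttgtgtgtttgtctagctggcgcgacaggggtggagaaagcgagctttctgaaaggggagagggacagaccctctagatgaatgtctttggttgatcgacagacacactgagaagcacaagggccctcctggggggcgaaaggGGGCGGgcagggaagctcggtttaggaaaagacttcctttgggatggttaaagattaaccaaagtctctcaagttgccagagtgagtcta
Hoxa10, second window: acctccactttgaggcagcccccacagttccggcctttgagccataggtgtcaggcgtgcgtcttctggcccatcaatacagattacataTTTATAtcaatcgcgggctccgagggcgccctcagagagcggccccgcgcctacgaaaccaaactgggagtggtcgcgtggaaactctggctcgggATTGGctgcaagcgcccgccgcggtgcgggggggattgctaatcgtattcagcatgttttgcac
The Zic1 window held the CCAAT box and the GC box, each at 2 positions. The GC box appeared once in the Hoxa9 window and once in the first Hoxa10 window. The second Hoxa10 window held the CCAAT box and the TATA box once each, both on the other strand. Of 32851 windows of the same length in the table, 33.8% held the CCAAT box, 32.7% the GC box and 12.4% the TATA box. The base composition also differed: Zic1 had 66.0% G and C with 27 CpG sites, and the second Hoxa10 window 59.2% with 20. Hoxa9 had 49.6% with 3 CpG sites and the first Hoxa10 window 51.6% with 7, near the medians of 52.4% and 6 over all windows.

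Zic1, a zinc finger factor of dorsal mesoderm and neural tissue (chromosome 9, 91358058 to 91365810, GRCm38), stood at 7.35, 16.0 and 14.2 CPM in BAT 1 to 3 and at 0.196, 0.0446 and 0.118 CPM in IWAT 1 to 3. Every BAT library was far above every IWAT library, and BAT 1, the library with the most Ucp1, had the least Zic1 of the 3. The log2 fold change was 6.73 ± 0.69 (BH-adjusted p = 0.00372, n = 3 libraries per depot by edgeR). Zic1 was also low in the other white depots, at 0.0488 to 0.343 CPM in EWAT and 0.182 to 0.910 CPM in RWAT. Its IWAT level was not called different from either of them (BH-adjusted p = 0.794 against EWAT and 0.164 against RWAT by edgeR). Of all 18942 genes, edgeR called 2082 between IWAT and EWAT and 0 between IWAT and RWAT.

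The neighbouring Zic4 stood at 1.01, 1.67 and 3.40 CPM in BAT 1 to 3 and had 0 counts in all 3 IWAT libraries. With 114 counts against 0 and a floor of 3 counts over the group, it was at least 36.6-fold higher in BAT, but it missed the threshold (BH-adjusted p = 0.174 by edgeR). Zic1 and Zic4 overlap by 3398 bases on opposite strands. Whether counting used strand is not given in the sources used here, so reads in the overlap cannot be told apart. Of the other Zic genes, which were too low to test, Zic5 had 30 counts in BAT and 1 in IWAT, and Zic2 had 10 and 0.

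Lhx8, a LIM homeobox factor used as a marker of brown fat, stood at 9.06, 7.96 and 10.6 CPM in BAT 1 to 3 and at 3.92, 2.14 and 2.06 CPM in IWAT 1 to 3. The groups did not overlap, yet the difference of 1.77 ± 0.82 missed the threshold (BH-adjusted p = 0.390 by edgeR). Lhx8 had 0 CPM in all 3 EWAT libraries, and IWAT was called higher than EWAT (log2 fold change 8.67, BH-adjusted p = 0.0248 by edgeR). That fitted fold rests on a group at 0 and is no bound. Of 6 tested genes in the list of Zic and dorsal trunk factors, 1 was called higher. Of the 6, 4 did not overlap and were higher in BAT (8.37% of all genes). The median log2 fold change was 1.26, against -0.02 over all genes. The median was 0.47 without BAT 2, 0.61 without IWAT 1 and 0.75 to 0.76 without RWAT 1 or any EWAT library. Each such fit repeated the filter on low counts, so the genes tested could differ. Without BAT 2 this list held 7 tested genes. The mesodermal factor Meox1 was the fourth of the genes without overlap, at 9.27, 9.23 and 5.75 CPM in BAT against 5.69, 4.95 and 5.65 CPM in IWAT (BH-adjusted p = 0.522 by edgeR).

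Hoxa10, a homeobox gene of the posterior HoxA cluster (chromosome 6, 52231197 to 52240854), stood at 0.0533, 0 and 0 CPM in BAT 1 to 3 and at 23.6, 9.06 and 4.71 CPM in IWAT 1 to 3. Its log2 fold change was -9.002 ± 0.95 (BH-adjusted p = 0.00372 by edgeR). BAT held 1 count and IWAT 644, which is a ratio of 668 with a 95% exact counting interval of 119 to 26431. The groups were far apart, although the IWAT libraries also differed among themselves. Without BAT 1, which held the single count, Hoxa10 missed the threshold (BH-adjusted p = 0.0887 by edgeR).

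Hoxa9, its neighbour (chromosome 6, 52223100 to 52231089), stood at 0.160, 0.0507 and 0.110 CPM in BAT 1 to 3 and at 13.5, 8.70 and 2.59 CPM in IWAT 1 to 3. Its log2 fold change was -6.20 ± 0.67 (BH-adjusted p = 0.00412 by edgeR). Hoxc10, of the HoxC cluster (chromosome 15, 102966796 to 102971893), had 0 counts in all 3 BAT libraries and stood at 16.3, 10.3 and 4.94 CPM in IWAT 1 to 3. Against a floor of 3 counts over the group it was at least 195-fold lower in BAT (BH-adjusted p = 0.00462 by edgeR). In CPM, IWAT 1 was highest and IWAT 3 lowest for all 3 homeobox genes. On a scale per transcript length, the deposited TPM, their levels in IWAT were 5.82 ± 2.87 TPM for Hoxa9, 8.16 ± 4.05 TPM for Hoxa10 and 6.57 ± 2.69 TPM for Hoxc10 (SD, n = 3), differences smaller than the spread between libraries. In TPM, IWAT 3 was again lowest, but IWAT 2 was highest for Hoxa9 (6.96, 7.94 and 2.56 TPM in IWAT 1 to 3) and Hoxc10 (7.30, 8.81 and 3.59 TPM). In the annotation Hoxc10 overlaps a long form of Hoxc5 on the same strand, so an estimated count there depends on how reads were divided.

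Across the posterior homeobox list, the HoxA, HoxC and HoxD genes tested were lower in BAT and the HoxB gene was not. Of 16 posterior genes 6 passed the filter and 3 were called lower, with a median log2 fold change of -4.52. Of the 6, 5 did not overlap and were lower in BAT (7.91% of all genes). Hoxc9 stood at 0.213, 2.38 and 1.04 CPM in BAT 1 to 3 and at 12.7, 8.03 and 5.41 CPM in IWAT 1 to 3 (-2.83 ± 0.62, BH-adjusted p = 0.194 by edgeR). The groups were separate, but BAT kept a low level. Hoxc9 also lies within the long form of Hoxc5 on the same strand, so this level depends on how reads were divided. Hoxd9 was lower without overlap (-1.77 ± 0.45, BH-adjusted p = 0.236 by edgeR), whereas Hoxb9 overlapped at 0.602 to 1.06 CPM in BAT against 0.458 to 1.12 CPM in IWAT. Among the untested genes, Hoxc11 had 0 counts in BAT and 23 in IWAT, Hoxd10 had 0 and 12, and Hoxa11 had 0 and 9. Genes nearer the head end of the clusters showed 0 calls among 20 tested. Without overlap 2 were higher and 2 lower (8.37% and 7.91% of all genes). Their median was -0.28, which was -0.46 without IWAT 1, -0.10 without IWAT 2 and -0.09 without IWAT 3. Hoxa7 was lowest in p among them, at 3.04, 4.56 and 6.68 CPM in BAT against 8.83, 10.6 and 8.83 CPM in IWAT (BH-adjusted p = 0.297 by edgeR).

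**Figure D1:**
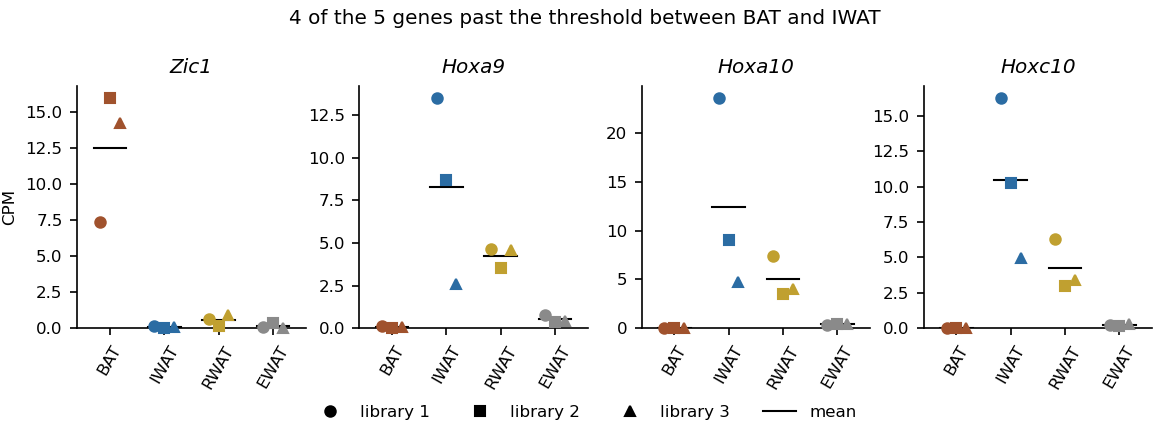
CPM of Zic1, Hoxa9, Hoxa10 and Hoxc10 in each of the 12 libraries, with a panel per gene, points for libraries, marker shapes for library number and lines for the depot mean (y axes start at 0 and differ). Zic1 is at 7.35 CPM or more in BAT and at most 0.910 CPM elsewhere. The 3 homeobox genes are at or near 0 in BAT, below 1 CPM in EWAT and at 3.00 to 7.44 CPM in RWAT.

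The white depots did not share one homeobox level. IWAT was called higher than EWAT for Hoxa9, Hoxa10 and Hoxc10, by log2 fold changes of 3.93 ± 0.55, 4.85 ± 0.66 and 5.43 ± 0.59 (BH-adjusted p = 0.00705, 0.00545 and 0.00532 by edgeR). Against RWAT the differences of 0.95, 1.31 and 1.298 missed the threshold (BH-adjusted p = 0.265, 0.197 and 0.171 by edgeR). Of all 18942 genes, edgeR called 2082 between IWAT and EWAT and 0 between IWAT and RWAT. Missing the threshold against RWAT is therefore not particular to these genes. In RWAT they stood at 3.55 to 4.64, 3.55 to 7.44 and 3.00 to 6.33 CPM, and all 3 RWAT values of Hoxa9 were above the 2.59 CPM of IWAT 3. The contrasts of IWAT with EWAT and RWAT use the same IWAT libraries as the comparison with BAT and are no independent support for it. Tbx15, a T-box factor of subcutaneous and brown fat, showed another arrangement, with EWAT as the low depot. It stood at 16.4, 23.1 and 19.7 CPM in BAT 1 to 3 and at 22.8, 23.6 and 17.2 CPM in IWAT 1 to 3. In RWAT 1 to 3 it stood at 19.7, 4.82 and 10.8 CPM, and in EWAT at 0.147 to 0.285 CPM. IWAT was not called different from RWAT for Tbx15 (0.85 ± 0.39, BH-adjusted p = 0.248 by edgeR). The BAT and IWAT ranges overlapped (-0.10 ± 0.39, BH-adjusted p = 0.934 by edgeR), while IWAT was called higher than EWAT by 6.65 ± 0.55 (BH-adjusted p = 0.00121 by edgeR).

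Of 16 tested T-box, Iroquois and limb factors 0 were called, with a median of -0.56 (-0.32 without IWAT 1). In BAT 1 was higher and 4 were lower without overlap (8.37% and 7.91% of all genes). The 4 were Emx2, Pitx1, Shox2 and Tbx3. Pitx1, which specifies the hind limb, had 0 counts in BAT and 48 in IWAT (BH-adjusted p = 0.293 by edgeR). Pooled over the group it was at least 16.6-fold lower in BAT. Pitx1 stood at 0.131, 1.83 and 0.294 CPM in IWAT 1 to 3, so this bound rests mostly on IWAT 2. Shox2, a limb factor, stood at 3.89, 4.71 and 2.25 CPM in BAT against 17.9, 26.0 and 7.30 CPM in IWAT (BH-adjusted p = 0.357 by edgeR). Emx2, a homeobox factor of the urogenital tract and shoulder girdle, differed by -3.06 ± 0.63 (BH-adjusted p = 0.189 by edgeR). Tbx1, which was not tested, had 1 count in BAT and 69 in IWAT; it was chosen after its values were seen.

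Genes of myeloid and lymphoid cells were among the 12 of smallest p that were higher in BAT without overlap. Lair1, an inhibitory collagen receptor of leukocytes, stood at 58.3, 32.7 and 49.1 CPM in BAT 1 to 3 and at 12.6, 10.1 and 14.7 CPM in IWAT 1 to 3 (1.91 ± 0.28, BH-adjusted p = 0.0678 by edgeR). Ccl12, a monocyte chemokine, stood at 31.2, 18.7 and 14.0 CPM in BAT against 3.79, 1.43 and 2.53 CPM in IWAT (3.05 ± 0.45, BH-adjusted p = 0.0712 by edgeR). Il21r, the receptor of interleukin 21, stood at 11.2, 13.4 and 11.8 CPM in BAT against 1.83, 1.47 and 2.71 CPM in IWAT (2.60 ± 0.40, BH-adjusted p = 0.0943 by edgeR). None of the 3 overlapped between the depots and none was called. Gsap, Klra2, Clec4n, Ms4a6d, Cd300ld, Ifi44 and Ccl7 were also among the 12 (edgeR BH-adjusted p 0.133 to 0.174). For Lair1, Il21r, Gsap, Klra2, Clec4n, Ms4a6d and Cd300ld the mean of EWAT was also above that of BAT, whereas for Ccl12, Ifi44 and Ccl7 it was below.

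Of 21 macrophage genes tested 0 were called and 4 were higher in BAT without overlap (8.37% of all genes). The median was 0.33 with all libraries, 0.59 without BAT 3 and 0.86 without IWAT 3. The general markers among them held these 4. Fcgr1, the high-affinity IgG receptor, stood at 207, 83.6 and 92.1 CPM in BAT against 13.1, 19.1 and 26.7 CPM in IWAT (BH-adjusted p = 0.189 by edgeR). Adgre1, which encodes F4/80, stood at 391, 352 and 514 CPM in BAT against 172, 139 and 329 CPM in IWAT (BH-adjusted p = 0.347 by edgeR). Spp1, which encodes osteopontin, reached 616 and 1120.5 CPM in BAT 1 and BAT 2 but 92.5 CPM in BAT 3, below the 118 CPM of IWAT 3. The mean log2(CPM + 1) of the list was 7.44 to 7.58 in BAT and 6.36, 6.84 and 7.47 in IWAT 1 to 3, so that IWAT 3 lay among the BAT libraries. It was 7.88 to 8.41 in EWAT and 7.56 to 8.23 in RWAT, so each BAT library was below every EWAT library.

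Interferon response genes had positive log2 fold changes in 25 of 25 tested members, with a median of 2.03. By edgeR 0 of 25 were called and 24 were higher at an unadjusted p below 0.05 (8.11% of all genes). Without overlap 9 were higher in BAT (8.37% of all genes). Ifi44, an interferon-induced protein, stood at 76.1, 9.43 and 21.2 CPM in BAT 1 to 3 and at 3.46, 4.42 and 3.35 CPM in IWAT 1 to 3 (3.24 ± 0.59, BH-adjusted p = 0.174 by edgeR). Oas1a, a sensor of double-stranded RNA, stood at 155, 44.0 and 63.1 CPM in BAT against 21.2, 21.3 and 21.5 CPM in IWAT (BH-adjusted p = 0.205 by edgeR). The IWAT libraries were nearly level, and the spread lay within BAT. Irgm1, an interferon gamma-induced GTPase, stood at 175, 44.3 and 226 CPM in BAT against 34.8, 40.2 and 27.7 CPM in IWAT (BH-adjusted p = 0.208 by edgeR). Isg15, a ubiquitin-like modifier, stood at 94.1, 11.1 and 27.5 CPM in BAT against 8.17, 8.08 and 6.18 CPM in IWAT (BH-adjusted p = 0.211 by edgeR).

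BAT 2 was the lowest BAT library for 25 of 25 interferon genes, and BAT 1 or BAT 3 held the highest value of the 6 libraries for all of them, 18 and 7 genes. The mean log2(CPM + 1) of the list was 7.12, 4.79 and 6.60 in BAT 1 to 3 and 4.67, 4.83 and 4.25 in IWAT 1 to 3, so BAT 2 stood within the IWAT range. Without BAT 2, edgeR called 11 of 25, among them Bst2, Cxcl10, Ifit2, Irgm1, Isg15 and Oas2, when 0.398% of all genes were called higher, and the median was 2.36. Without BAT 1 it called 0 of 25 and the median was 1.29. With all libraries DESeq2 called 14 of 25, where 1.53% of all genes were called higher.

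**Figure D2:**
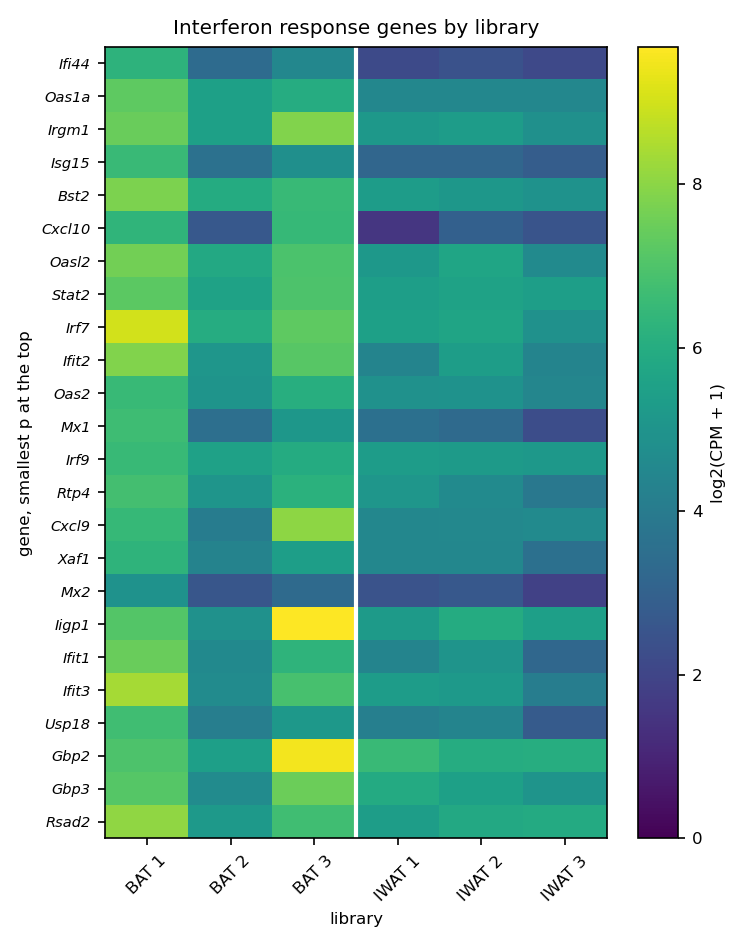
Log2(CPM + 1) of 24 of the 25 interferon response genes (rows, in order of p) in the 6 libraries (columns), with a white line between the depots. BAT 1 and BAT 3 are brighter than the IWAT libraries in nearly all rows, and BAT 2 is close to IWAT.

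Genes of T and natural killer cells had positive log2 fold changes in 20 of 20 tested members, with a median of 1.61. By edgeR 0 were called and 12 were higher at an unadjusted p below 0.05 (8.11% of all genes). The 2 that were higher without overlap (8.37% of all genes) were both from the cytotoxic part of the list. Gzma, a granule protease, stood at 29.5, 1.98 and 7.94 CPM in BAT 1 to 3 and at 1.90, 1.16 and 0.706 CPM in IWAT 1 to 3 (3.39 ± 0.86, BH-adjusted p = 0.236 by edgeR). Klrd1, a natural killer receptor subunit, stood at 16.6, 1.98 and 2.52 CPM in BAT against 1.83, 0.803 and 0.706 CPM in IWAT (BH-adjusted p = 0.288 by edgeR). BAT 1 was highest of the 6 libraries for 19 of 20 genes and BAT 2 lowest in BAT for 18. The mean log2(CPM + 1) was 3.51, 1.16 and 2.11 in BAT 1 to 3 and 1.03 to 1.82 in IWAT, and without BAT 1 the median was 0.47. Their part in the interferon values was not tested.

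The thermogenic effector genes separated BAT 1 from the other 5 libraries more than BAT from IWAT. Of 23 tested (of 27 listed) 0 were called by edgeR and 7 were higher at an unadjusted p below 0.05 (8.11% of all genes). Without overlap 1 was higher in BAT (8.37% of all genes). The median was 1.17 with all libraries, -0.84 without BAT 1, 1.80 without BAT 2 or BAT 3 and 1.92 without IWAT 1. The mean log2(CPM + 1) over the 27 listed genes was 5.75, 2.47 and 2.79 in BAT 1 to 3 and 3.59, 3.13 and 2.81 in IWAT 1 to 3. BAT 2 and BAT 3 stood below all IWAT libraries by this mean, BAT 3 only just. By summed level the order differed, with 608 and 653 CPM in BAT 2 and BAT 3 against 734, 575 and 656 CPM in IWAT 1 to 3. Ucp1 differed by 6.66 ± 2.37 (BH-adjusted p = 0.335 by edgeR) and by -2.34 without BAT 1 (0.592 by the same test).

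Fabp3, a fatty acid binding protein of muscle and brown fat, stood at 140, 2.03 and 1.15 CPM in BAT 1 to 3 and at 0.850, 1.52 and 1.12 CPM in IWAT 1 to 3 (5.34 ± 1.57, BH-adjusted p = 0.285 by edgeR). Cidea, a lipid droplet protein of brown fat, stood at 309, 0.558 and 2.30 CPM in BAT against 22.2, 12.8 and 2.29 CPM in IWAT (BH-adjusted p = 0.442 by edgeR). BAT 2 was below all IWAT libraries for Cidea, and BAT 3 matched IWAT 3. Gk, glycerol kinase, stood at 87.4, 28.3 and 14.2 CPM in BAT against 10.2 to 14.8 CPM in IWAT. Acot11, a thioesterase induced by cold, stood at 82.9, 13.5 and 7.39 CPM in BAT against 4.45 to 9.46 CPM in IWAT. The edgeR BH-adjusted p were 0.293 for Gk and 0.314 for Acot11.

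Dio2, which activates thyroid hormone in brown fat, stood at 50.9, 1.32 and 0.767 CPM in BAT against 2.03, 1.56 and 0.412 CPM in IWAT. Cpt1b, the muscle and brown fat form of carnitine palmitoyltransferase, stood at 219, 0.963 and 2.46 CPM in BAT against 5.88, 4.51 and 1.41 CPM in IWAT. Cox8b, a respiratory subunit of brown fat and muscle, stood at 229, 0.0507 and 2.74 CPM in BAT against 82.0, 16.4 and 4.71 CPM in IWAT. BAT 1 was highest for all 3 genes, and BAT 2 was below every IWAT library for Cpt1b and Cox8b. For Cox8b IWAT 1 and IWAT 2 were also well above BAT 2 and BAT 3. Dio2 and Cox8b were named after their values were seen. Acsl5, an acyl-CoA synthetase, was the gene without overlap, at 147, 106 and 111 CPM in BAT against 85.7 to 88.7 CPM in IWAT (BH-adjusted p = 0.361 by edgeR). BAT 1 held the highest value of the 6 libraries for 18 of the 23 genes.

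**Figure D3:**
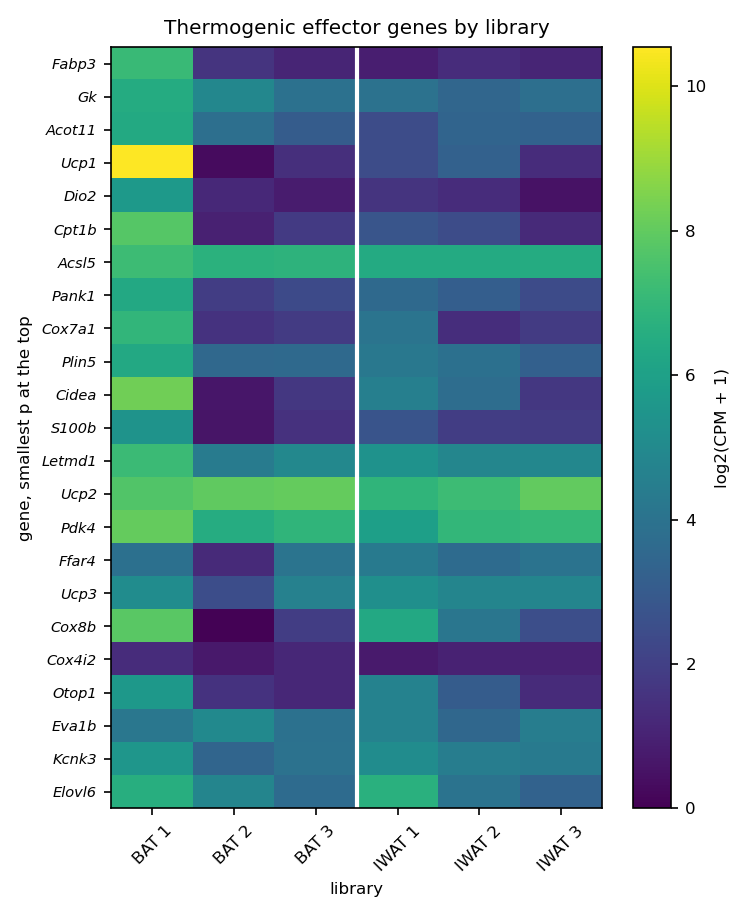
Log2(CPM + 1) of the 23 tested thermogenic effector genes (rows, in order of p) in the 6 libraries (columns), with a white line between the depots. BAT 1 is bright for Ucp1, Cidea, Cpt1b, Fabp3 and Cox7a1, and for Cidea and Cox8b BAT 2 and BAT 3 are darker than IWAT 1 and IWAT 2.

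The regulators of brown fat were mixed. Of 21 tested 0 were called, and without overlap 0 were higher and 3 lower in BAT (8.37% and 7.91% of all genes). The median was -0.14. It was -0.78 without BAT 1, and -0.23 to -0.49 without BAT 2, BAT 3, IWAT 1 or IWAT 3. BAT 1 held the highest value of the 6 libraries for 5 of the 21: Ppara, Ppargc1a, Ppargc1b, Esrra and Esrrg, transcriptional regulators of oxidative metabolism, named after their values were seen. Ppara stood at 48.2, 0.811 and 4.93 CPM in BAT against 7.98, 7.99 and 4.65 CPM in IWAT (BH-adjusted p = 0.582 by edgeR). Ppargc1a stood at 19.8, 0.456 and 3.94 CPM in BAT against 12.8, 10.1 and 3.77 CPM in IWAT (BH-adjusted p = 0.969 by edgeR). For both, BAT 2 was below every IWAT library. Prdm16, a coregulator of the brown and beige fat programme, stood at 13.8, 3.85 and 7.72 CPM in BAT 1 to 3 and at 12.8, 21.6 and 11.8 CPM in IWAT 1 to 3 (BH-adjusted p = 0.438 by edgeR). Its highest value was in IWAT 2. Ebf3, Nfia and Nrg4 also had negative differences, of -0.69, -0.97 and -0.99 (edgeR BH-adjusted p 0.350 to 0.430). Adrb3, the beta adrenergic receptor of adipocytes, stood at 68.1, 7.86 and 226 CPM in BAT against 120, 167 and 111 CPM in IWAT (BH-adjusted p = 0.911 by edgeR). Th, the enzyme of noradrenaline synthesis that marks sympathetic axons, had 0 counts in the 6 libraries and was not tested.

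Skeletal muscle transcripts were present in BAT 1 as well. The mean log2(CPM + 1) of the muscle list was 3.86, 1.80 and 1.35 in BAT 1 to 3 and 1.11 to 1.41 in IWAT, and its summed level was 63.2 to 424 CPM in BAT against 59.8 to 87.1 CPM in IWAT. Of 17 tested genes 0 were called by edgeR and 5 were higher at an unadjusted p below 0.05 (8.11% of all genes). Without overlap 3 were higher in BAT (8.37% of all genes). The median was 3.01 with all libraries and 0.77 without BAT 1. Ckm, muscle creatine kinase, stood at 12.3, 0.760 and 0.329 CPM in BAT against 0.0654, 0.0446 and 0.0588 CPM in IWAT (6.17 ± 2.10, BH-adjusted p = 0.312 by edgeR). Ttn, the giant sarcomere protein titin, stood at 152, 34.3 and 6.19 CPM in BAT against 9.15, 6.42 and 3.88 CPM in IWAT (BH-adjusted p = 0.347 by edgeR). BAT 1 held the highest value for 15 of the 17 genes. The part of muscle in the values of Cpt1b, Fabp3 and Cox8b in BAT 1 was not tested.

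Adipocyte genes mostly had negative differences and were lowest in BAT 2. Of 24 pan-adipocyte genes 23 had negative log2 fold changes, with a median of -1.02, which was -0.56 without BAT 2 and -1.66 without BAT 3. By edgeR 0 were called and 1 was lower at an unadjusted p below 0.05 (5.09% of all genes). Without overlap 5 were lower in BAT (7.91% of all genes). The mean log2(CPM + 1) was 8.80, 7.17 and 9.56 in BAT 1 to 3 and 10.3, 9.46 and 9.64 in IWAT 1 to 3, so BAT 3 lay within the IWAT range. Adipoq, which encodes adiponectin, stood at 585, 173 and 2276 CPM in BAT against 2157, 1719 and 2323 CPM in IWAT (BH-adjusted p = 0.686 by edgeR). Cebpa, a master factor of adipocytes, stood at 244, 126 and 368 CPM in BAT against 672, 415 and 437 CPM in IWAT (-1.05 ± 0.39, BH-adjusted p = 0.338 by edgeR). BAT 2, the lowest for 22 of 24 genes within BAT, had 34.8 CPM of Cfd, the secreted protease adipsin, against 1155 to 1161 CPM in the other BAT libraries and 1869.9 to 7145 CPM in IWAT.

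Adipokine and white fat genes leaned the same way, with a median of -0.87 over 23 tested (-0.54 without BAT 2 and -1.81 without BAT 3). There were 0 calls by edgeR, and 2 were lower in BAT without overlap (7.91% of all genes). Lep, which encodes leptin, stood at 141, 138 and 939 CPM in BAT against 1277, 469 and 1375 CPM in IWAT (BH-adjusted p = 0.608 by edgeR). Mest, an imprinted gene tied to adipocyte enlargement, stood at 26.5, 33.3 and 35.5 CPM in BAT against 114, 90.8 and 220 CPM in IWAT (-2.15 ± 0.37, BH-adjusted p = 0.164 by edgeR). Mest was even within BAT and had no overlap, in contrast to Lep. In the list of imprinted and growth genes, where Mest also stands, 0 of 17 were called and the median was -0.74. Without overlap 1 was higher and 3 lower (8.37% and 7.91% of all genes). H19, an imprinted noncoding RNA, had the opposite direction at 50.6, 54.5 and 12.9 CPM in BAT against 4.45, 12.8 and 11.5 CPM in IWAT (BH-adjusted p = 0.236 by edgeR).

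Fatty acid synthesis genes depended on IWAT 1. Of 14 tested 0 were called by edgeR, 3 were lower in BAT without overlap (7.91% of all genes), and the median was -1.13. It was 0.07 without IWAT 1, which held the highest value for 12 of the 14 genes. Me1, malic enzyme, stood at 158, 89.6 and 152 CPM in BAT against 1057, 178 and 168 CPM in IWAT (-1.81 ± 0.69, BH-adjusted p = 0.338 by edgeR). Srebf1, a factor that drives lipogenic genes, stood at 185, 94.7 and 207 CPM in BAT against 394, 260 and 212 CPM in IWAT (BH-adjusted p = 0.357 by edgeR). Among 21 fatty acid oxidation genes 0 were called and the median was -0.31, or -0.87 without BAT 1, 0.05 without BAT 2 and 0.10 without IWAT 1. Positive log2 fold changes were found for 9 of the 21, with Cpt1b at 4.23, Acaa2 at 0.70 and Slc25a20 at 0.44. Ehhadh, a peroxisomal oxidation enzyme, was lower without overlap at 7.65 to 21.8 CPM in BAT against 30.2 to 44.8 CPM in IWAT (BH-adjusted p = 0.325 by edgeR). The share of counts from mitochondrially encoded protein genes was 3.51%, 0.993% and 1.58% in BAT 1 to 3 and 1.88%, 2.31% and 1.70% in IWAT 1 to 3. The difference of 0.0683 percentage points had an exact two-sided permutation p of 1 over 20 splits, where the smallest possible is 0.1.

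Insulin signalling, clock and glial genes were each without a call by edgeR. The insulin and glucose list had a median of -0.72 over 12 genes (-0.45 without BAT 2). Without overlap 1 was higher and 3 lower in BAT (8.37% and 7.91% of all genes). Pik3r1, the regulatory subunit of phosphoinositide 3-kinase, stood at 168, 102 and 241 CPM in BAT against 365, 328 and 264 CPM in IWAT (BH-adjusted p = 0.314 by edgeR). In the circadian clock list 11 of 13 differences were negative, with a median of -0.46 (-0.82 without BAT 3). Of the 13, 4 were lower in BAT without overlap (7.91% of all genes). Nr1d1, the clock repressor REV-ERB alpha, stood at 19.7, 12.2 and 33.3 CPM in BAT against 53.8, 52.7 and 45.8 CPM in IWAT (BH-adjusted p = 0.293 by edgeR). The clock list was nearly level across IWAT, with a mean log2(CPM + 1) of 4.62 to 4.74, and 3.71 to 4.50 in BAT.

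Schwann cell genes had a median of -0.65 over 14 tested. Without overlap 1 was higher and 1 lower in BAT, near the 8.37% and 7.91% of all genes. The median was -1.38 without BAT 1 and -0.29 without IWAT 3. Sox10, the factor that defines the glial lineage, stood at 0.799, 0.101 and 0.383 CPM in BAT against 0.785, 2.32 and 1.18 CPM in IWAT (BH-adjusted p = 0.320 by edgeR). Its levels were low in both depots and the groups overlapped.

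Cell cycle genes had positive log2 fold changes in 16 of 16 tested members, with a median of 1.36. By edgeR 0 were called and 13 were higher at an unadjusted p below 0.05 (8.11% of all genes). Without overlap 2 of the 16 were higher in BAT (8.37% of all genes). Top2a, a topoisomerase of dividing cells, stood at 130, 262 and 115 CPM in BAT against 21.0, 70.0 and 101 CPM in IWAT; it was named after its values were seen. Rrm2, a subunit of ribonucleotide reductase, stood at 31.2, 70.2 and 19.3 CPM in BAT against 3.27, 14.3 and 21.3 CPM in IWAT (BH-adjusted p = 0.338 by edgeR). BAT 2 was highest for 16 of 16 genes and IWAT 1 was low. Without BAT 2 the median was 0.72. The mean log2(CPM + 1) of the list was 4.66 to 6.07 in BAT and 2.69 to 4.78 in IWAT. It was 5.31 to 6.13 in EWAT and 4.88 to 5.91 in RWAT, ranges that overlapped that of BAT. By mean level BAT 2 was the lowest of the 6 libraries for pan-adipocyte genes and the highest for cell cycle genes, and for interferon genes it was lowest within BAT but within the IWAT range. Its collagen list was also the highest of the 6, with a mean log2(CPM + 1) of 10.7 against 8.98 to 9.99 in the other 5 libraries. The part of tissue composition in these values was not tested.

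Genes lower in BAT outside the homeobox clusters and without overlap included Gli2, a Hedgehog transcription factor, at 2.08, 1.98 and 2.79 CPM in BAT against 7.78, 5.58 and 5.59 CPM in IWAT (-1.46 ± 0.28, BH-adjusted p = 0.177 by edgeR). Pik3cb, a catalytic subunit of phosphoinositide 3-kinase, stood at 34.4, 32.0 and 41.6 CPM in BAT against 95.6, 70.4 and 62.0 CPM in IWAT (BH-adjusted p = 0.189 by edgeR). Reln, the secreted protein reelin, stood at 3.46, 1.17 and 1.86 CPM in BAT against 13.2, 11.9 and 5.47 CPM in IWAT (BH-adjusted p = 0.218 by edgeR). Within BAT, Gli2 and Pik3cb were closer together than Reln. Kcnh2, Col4a5, Foxred2 and Zhx3 completed the 12 genes of smallest p (edgeR BH-adjusted p 0.194 to 0.236).

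**Figure D4:**
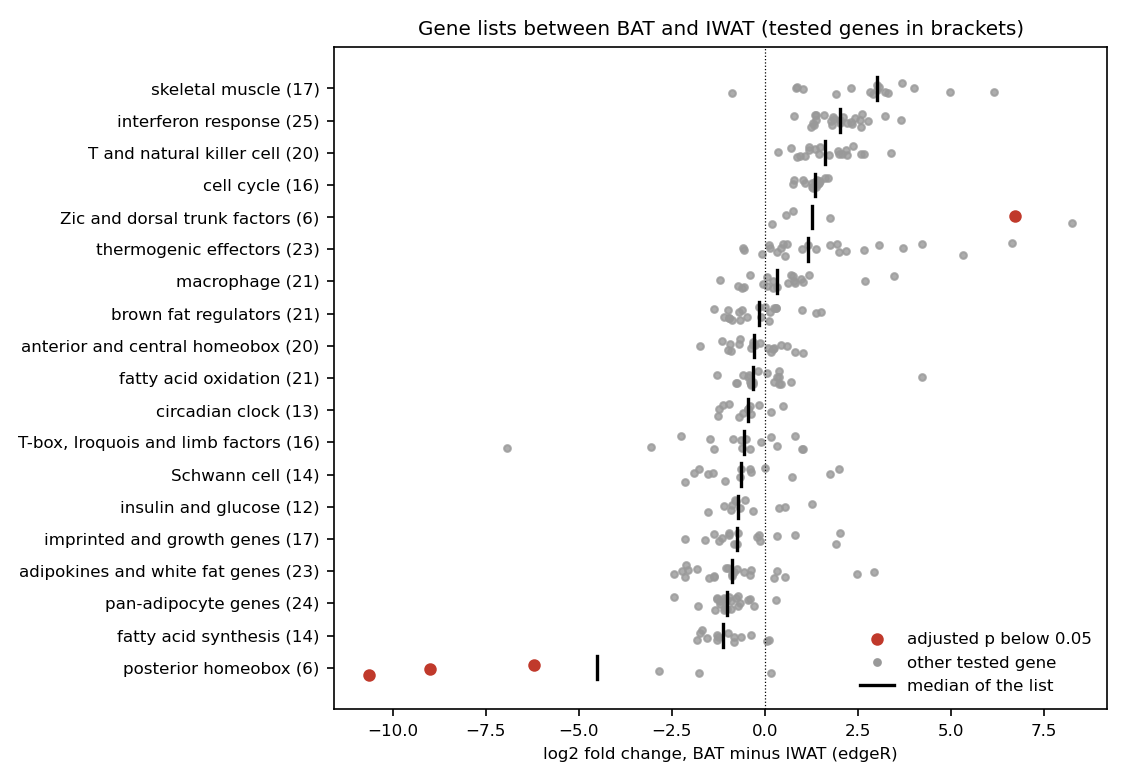
Log2 fold change of BAT over IWAT for each tested member of 19 gene lists, with called genes in red, other genes in grey and a black line at the list's median. The 4 red points are Zic1 at 6.73 and the 3 homeobox genes at -6.20 to -10.63 (the fitted value of Hoxc10, with BAT at 0 counts, is no bound), and every other member is grey.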

How the data were processed

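RNA abundance was measured by single-end sequencing of 75 bp on ribosomal RNA-depleted total RNA, per the labels' protocols, in 12 libraries, 3 in each of 4 fat depots. Per the submitters' processing notes, Trimmomatic 0.36, RSEM 1.3.0, DESeq2 1.10.1 and GRCm38.p4 were used. The aligner, the annotation release and strand settings are not given in the sources used here. Per the file headers, each deposited table gives an RSEM expected count per gene, an estimated read count with no scaling between libraries, and the deposited TPM. TPM is scaled by transcript length and was used here only for the levels of Hoxa9, Hoxa10 and Hoxc10 in IWAT, between genes and between libraries.

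Expected counts were rounded. Genes with too few counts were removed with filterByExpr of edgeR 4.0.16 (minimum count 10), and libraries were scaled by TMM (factors 0.846 to 1.14) to give CPM. The edgeR quasi-likelihood F test was run in R 4.3.3 with its current method (legacy=FALSE) in 1 model with a coefficient per depot. BH adjustment ran over all 18942 genes, and the common biological coefficient of variation was 0.385. DESeq2 1.42.0 and limma 3.58.1 (voom) were alternatives. Symbols came from the deposited gene IDs, of which 47224 of 47729 matched GENCODE M21, the source of positions on GRCm38. The script was tested on simulated data. The deposited libraries of a depot were checked and did not agree within sampling noise. The floor of 3 counts in 1 library corresponds to 0.134 to 0.196 CPM.

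Named genes were the called genes, the 12 genes of smallest p in each direction without overlap, with at least 5 CPM and a proper symbol, up to 4 members of smallest p per list described, and Ucp1, Cidea, Prdm16, Zic1, Lhx8, Tbx15, Hoxc9, Hoxc10, Lep, Adipoq, Adrb3 and Th. Zic2, Zic5, Hoxa11, Hoxb9, Hoxc11, Hoxd9, Hoxd10, Tbx1, Tbx3, Acsl5, Cox7a1, Cox8b, Dio2 and other genes outside this rule were chosen after their values were seen. Some genes are in the counts and list summaries but are not reported here by name. Of 42 gene lists, 19 are described, with the collagen list given by its level. The libraries, the genes and the lists were chosen with earlier results of these data known. The alternatives were other scalings, filters and tests, a fit of the 6 libraries alone, the replicate number as a block, a test against a log2 fold change of 1, leaving out each library and, chosen after seeing the data, the earlier quasi-likelihood method. Each fit without a library repeated the filter on low counts, so a list median there can rest on other members. The thermogenic list, for instance, had 23 tested genes with all libraries and 25 without BAT 2.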

Additional observations from a re-analysis of the deposited data

How the results depend on the processing

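The count of 5 genes was 5 or 6 with RLE size factors, upper-quartile scaling, TMM without mitochondrial and ribosomal RNA genes, either other filter and the earlier quasi-likelihood method, and the same 5 genes were among them. DESeq2 called 321 (272 higher and 49 lower in BAT). Limma-voom called 0 and the fit of the 6 libraries alone 0, with 0 in each direction and BH-adjusted p for Zic1, Hoxa9, Hoxa10 and Hoxc10 of 0.0552 to 0.245 and 0.0583 to 0.302. Testing against a log2 fold change of 1 left 4 genes, 1 of them higher. Leaving out a library gave 3 to 82 genes, 1 to 78 higher and 2 to 4 lower in BAT. Without EWAT 1 the count was 9, 6 of them higher. Zic1, Hoxa9 and Hoxc10 were called in each of the 12 such fits, each of which leaves 2 libraries in 1 depot.

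With the replicate number as a block 4 genes were called, 1 of them higher. The labels do not say whether libraries with the same number came from the same animal. Over genes, deviations of BAT and IWAT libraries with the same number correlated at 0.388, 0.159 and -0.134. BAT 1 correlated best with its own number, and BAT 2 and BAT 3 correlated better with another number. Deviations from a depot's mean depend on one another when it has few libraries, so these values cannot decide whether samples were paired. 

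Of 96 named genes, 89 kept their direction in every alternative. Leaving out a library gave log2 fold changes of -2.34 (without BAT 1) to 7.38 for Ucp1, -3.12 (without BAT 1) to 3.78 for Cidea, -1.20 (without BAT 1) to 4.81 for Cpt1b, -0.0941 (without BAT 1) to 0.683 for Slc25a20, -0.230 to 0.0152 (without BAT 1) for Tbx15, -1.81 to 0.145 (without BAT 2) for Adrb3 and -2.12 to 0.153 (without IWAT 1) for Acaca. Cidea was -0.25 by limma-voom. Of 19 list medians 16 kept their sign; thermogenic effectors, fatty acid synthesis and fatty acid oxidation did not. The mitochondrial share difference was -0.673 (without BAT 1) to 0.587 percentage points when a library was left out, and -0.0642 without IWAT 3.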
